A study of Mus musculus with 4 samples.

Results

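Chemokine receptors and the receptors of thymic egress were followed in invariant natural killer T (iNKT) cells of the thymus, whose semi-invariant T cell receptor binds lipids presented by CD1d. The 8 members, Cxcr3, Cxcr6, Ccr4, Ccr7, Ccr9, Cxcr4, S1pr1 and S1pr4, were taken by their symbols from the 32285 genes of the deposited tables. All 8 were found, each once. The cells came from the thymus of mice aged 6 to 8 weeks and were sorted as positive for CD3 and the CD1d tetramer. Libraries 1 and 2 of the wild type (WT) were set against libraries 1 and 2 labelled as an ACC1 knockout (ACC1 KO). Acaca encodes ACC1, an enzyme of the first committed step in making fatty acids. The sources used here give neither the strain, the deleted part of Acaca and the driver of the deletion nor whether each library came from its own animal. P-values therefore measure only the spread between these libraries, which may be technical.

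The 4 libraries held 5499 to 9927 barcodes and 29.1 to 74.2 M unique molecular identifiers (UMIs). After filters on cells, 27010 iNKT cells remained, 4601 to 9016 per library, with 23.6 to 65.6 M UMIs. Any pair of libraries shared 10 to 27 cell barcodes. Of the defining genes, Cd3e stood at 454 to 687 CPM (UMIs per 1 M UMIs of the sum), and Trac, Zbtb16, Traj18 and Trav11 were detected in every library. Acaca stood at 34.7 and 31.5 CPM in the WT libraries and at 46.8 and 60.7 CPM in the ACC1 KO libraries. Those values are not lower in the knockout libraries, and counts of transcript 3′ ends check the labels only if the deletion removes those ends. Ddx3y, a gene of the Y chromosome, was high in both libraries 1 and Xist in both libraries 2, which were also the deeper ones. Summed markers of double-positive (DP) thymocytes and B cells lay between 74.5 and 108 CPM in the iNKT sums of the 4 libraries, without separating the genotypes. The gamma delta T list (7 genes, at most 1 at 0 in a library) summed to 391 and 307 CPM in WT against 191 and 156 CPM in ACC1 KO. The lists of NK cells (270.1 and 320 against 266 and 257 CPM), regulatory T cells (388 and 429 against 285 and 375 CPM) and myeloid cells (100.2 and 117 against 91.5 and 97.5 CPM) were also lower in ACC1 KO. No cell was classed as gamma delta T, regulatory T or NK in any library. The list genes Klra4, Klre1 and Ikzf2 were among the leading genes of iNKT clusters. The part of these lists in the genotype differences given below was not tested.

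As background, chemokine receptors are G protein-coupled receptors that steer cells along gradients of their ligands. Ccr9 answers Ccl25 of the thymic epithelium and marks immature thymocytes, and Cxcr4 answers Cxcl12 and holds early thymocytes in the cortex. Ccr7 draws positively selected cells to the medulla. S1pr1 senses sphingosine 1-phosphate in blood and lymph and is the receptor that mature thymocytes use to leave. Cxcr3, the receptor of Cxcl9 and Cxcl10, and Cxcr6, the receptor of Cxcl16, are known from effector iNKT cells. Ccr4 binds Ccl17 and Ccl22, and S1pr4 is a second sphingosine 1-phosphate receptor of lymphocytes.

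Promoter sequence was taken for 2 receptors with high levels in iNKT1-like cells, Cxcr3 and Cxcr6, and 2 with high levels in iNKT2-like cells, Ccr4 and Ccr9, as described further on. Each run holds the 250 bases before the RefSeq start site, 5′ to 3′ on the gene's strand, in assembly GRCm38.p6, with a motif match in capitals. The 4 windows are, in order, chrX:101734148-101734397 on the minus strand, chr9:123806227-123806476 on the plus strand, chr9:114496545-114496794 on the minus strand and chr9:123766961-123767210 on the plus strand.
Cxcr3: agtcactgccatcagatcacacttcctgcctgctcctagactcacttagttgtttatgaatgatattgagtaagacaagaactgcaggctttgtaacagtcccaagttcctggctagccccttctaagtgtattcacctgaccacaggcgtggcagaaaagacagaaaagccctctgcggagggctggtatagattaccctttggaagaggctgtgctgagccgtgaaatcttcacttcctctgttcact
Cxcr6: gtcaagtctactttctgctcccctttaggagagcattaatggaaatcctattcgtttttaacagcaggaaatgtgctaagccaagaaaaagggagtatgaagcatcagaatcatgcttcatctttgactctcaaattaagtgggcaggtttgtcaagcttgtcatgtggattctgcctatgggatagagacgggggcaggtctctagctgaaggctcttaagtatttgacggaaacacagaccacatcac
Ccr4: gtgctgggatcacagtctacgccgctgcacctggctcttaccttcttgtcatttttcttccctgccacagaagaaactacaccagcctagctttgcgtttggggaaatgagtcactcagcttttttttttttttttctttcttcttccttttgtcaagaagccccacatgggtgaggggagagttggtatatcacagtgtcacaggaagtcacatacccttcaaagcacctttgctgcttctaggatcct
Ccr9: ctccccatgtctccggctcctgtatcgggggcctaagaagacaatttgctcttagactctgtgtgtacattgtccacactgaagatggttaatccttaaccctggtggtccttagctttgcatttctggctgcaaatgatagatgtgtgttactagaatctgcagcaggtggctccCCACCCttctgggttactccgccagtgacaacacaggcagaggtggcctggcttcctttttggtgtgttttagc

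Entries were there for 6 of the 8 members, all but Ccr7 and S1pr1. Both strands were searched for a T-box word (TCACACC), a KLF word (CCACCC), a FOXO word (TGTTTAC) and a GATA word (AGATAA), none of which lies inside another. Of 32851 mouse promoter windows of the same length, 3.33% held the T-box word, 28.1% the KLF word, 3.17% the FOXO word and 9.99% the GATA word. The KLF word was found in Ccr9, 74 bases before the start, and in S1pr4, 107 bases before it, and no other word was found in the 6 windows. A match is only a description of the letters.

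Ccr4, Ccr9 and Cxcr6 lie on chromosome 9 (GRCm38, the sequence of mm10). Ccr4 spans 114490316 to 114504916 on the minus strand, Ccr9 123678439 to 123784330 and Cxcr6 123806475 to 123811760, both on the plus strand, by the GENCODE annotation. Cxcr6 overlaps Fyco1 on the opposite strand, and Ccr9 overlaps 6 other annotated genes, Slc6a20a and Lztfl1 among them. Slc6a20a and Lztfl1 lie on the strand opposite to Ccr9, and of its neighbours only Gm17200 and Gm17020 lie on its own strand. Whether the counting used strand is not given in the sources used here. If it did, only Gm17200 and Gm17020 could share UMIs with Ccr9, and no neighbour with Cxcr6. If it did not, UMIs of Cxcr6 and Ccr9 could in part belong to any of these neighbours. The other members overlap no annotated gene: Cxcr3 is on chromosome X, Ccr7 on 11, S1pr1 on 3, S1pr4 on 10 and Cxcr4 on 1.

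Cells were grouped without using the members or the other listed receptors, and 13 clusters of iNKT cells were put into classes by marker genes where these allowed it. The resulting classes were iNKT1-like (13459 cells in 4 clusters), iNKT2-like (1234 cells), iNKT17-like (216 cells), iNKT0-like (332 cells), cycling (1189 cells) and interferon-responding (3426 cells). A further 7154 cells in 3 clusters stayed unnamed because markers of another set stood among their leading genes, the NK marker Klra4 in the 2 larger ones and the iNKT2 marker Izumo1r in the smallest. By marker score alone all 3 clusters were iNKT1-like. Unnamed cells made up 37.3 and 32.4% of WT and 21.4 and 17.0% of ACC1 KO iNKT cells. The cycling class joined a cluster led by Top2a and Mki67 (607 cells) and one led by Hells and Mcm3 (582 cells). Levels across classes are a description, without a test, because the classes were made from the same cells.

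Cxcr3 was high in iNKT1-like and interferon-responding cells. Throughout, 4 values are given by number, first for the WT and then for the ACC1 KO libraries. In iNKT1-like cells Cxcr3 stood at 148, 151, 106 and 96.1 CPM. The mean over libraries was 125 ± 28.4 CPM in iNKT1-like cells (SD, n = 4), 113 ± 24.3 CPM in interferon-responding cells and 97.4 ± 15 CPM in unnamed cells, whose ranges overlapped. Cycling cells followed at 62.6 ± 6.97 CPM and iNKT2-like cells at 34.8 ± 10.4 CPM, each below the lowest library of the class before it. By cluster, Top2a-led cycling cells held 40.0 ± 1.23 CPM and Hells-led ones 97.7 ± 18.6 CPM. In iNKT17-like and iNKT0-like cells Cxcr3 rested on 8 and 9 UMIs in all, at 5.04 ± 1.10 and 5.45 ± 4.63 CPM.

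Cxcr6 was high not only in iNKT1-like cells. It was high too in iNKT17-like cells, at 667, 477, 705 and 486 CPM, on 117 to 353 UMIs per library. Its mean there was 584 ± 119 CPM (SD, n = 4), against 463 ± 151 CPM in iNKT1-like and 427 ± 103 CPM in interferon-responding cells, with overlapping ranges. Unnamed, cycling and iNKT2-like cells lay lower and overlapped each other, at 273 ± 74.1, 235 ± 36.7 and 230 ± 11.8 CPM. iNKT0-like cells were lowest, at 39.2 ± 22.6 CPM.

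Ccr9, Ccr4 and Ccr7 had their highest means in iNKT2-like, iNKT0-like and cycling cells, Ccr4 with iNKT17-like cells just ahead of cycling ones. Among cycling cells the Top2a-led cluster carried these means. It held 159 ± 34.0 CPM of Ccr9, 21.7 ± 7.82 of Ccr4 and 52.0 ± 9.28 of Ccr7 (SD, n = 4). The Hells-led cluster held 1.75 ± 0.663, 1.74 ± 0.984 and 0.921 ± 1.62 CPM. Ccr9 stood at 240, 217, 333 and 282 CPM in iNKT2-like cells and at 434, 209, 296 and 192 CPM in iNKT0-like cells, so the ranges overlapped. Cycling cells held 96.8 ± 15.3 CPM (SD, n = 4), and iNKT1-like cells 7.01 ± 6.55 CPM. DP thymocyte-like cells of the same libraries, which were left out of the iNKT sums, held 224 to 669 CPM of Ccr9. Ccr4 was at 56.3, 47.7, 50.4 and 61.7 CPM in iNKT2-like cells, above all iNKT17-like and cycling libraries but overlapping iNKT0-like cells (42.6 ± 21.3 CPM).

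Ccr7 was even across libraries in iNKT2-like cells, at 50.1, 52.1, 50.4 and 55.0 CPM, or 51.9 ± 2.27 (SD, n = 4). Cycling cells held 32.0 ± 4.72 CPM and iNKT0-like cells 24.1 ± 12.1 CPM. In iNKT1-like cells 32 UMIs of Ccr7 were counted over 13459 cells, or 0.449 ± 0.314 CPM, and in unnamed cells 9 UMIs over 7154 cells. Although iNKT2-like cells made up 3.67, 2.07, 6.59 and 6.53% of iNKT cells, they gave 54.0, 44.0, 64.2 and 60.3% of the Ccr7 UMIs. Their share of the Ccr9 UMIs was 47.7, 48.6, 70.9 and 68.3%, and of the Ccr4 UMIs 48.1, 45.4, 65.0 and 66.3%. These cells were also deeper, at a median of 10800 UMIs against 5001 to 7873 in the iNKT1-like clusters. Their share of cells is therefore lower than their share of all UMIs.

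S1pr1 was highest on average in iNKT2-like cells, at 79.7, 39.7, 59.4 and 35.0 CPM, and the 2 libraries numbered 1 lay above the 2 numbered 2. Cycling, iNKT17-like, unnamed and interferon-responding cells held 29.2 ± 10.3, 29.0 ± 10.5, 27.3 ± 3.88 and 23.8 ± 4.85 CPM (SD, n = 4) and overlapped. iNKT1-like cells were at 17.2 ± 6.66 CPM. Top2a-led cycling cells held 43.6 ± 18.4 CPM and Hells-led ones 7.92 ± 1.51 CPM. The iNKT0-like mean, 19.7 ± 32.9 CPM, was set by WT 1 alone, with 18 UMIs against 1, 1 and 2 in the other libraries.

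S1pr4 held 63.8 ± 1.03 CPM in iNKT1-like, 63.0 ± 1.19 CPM in interferon-responding and 69.8 ± 4.16 CPM in unnamed cells (SD, n = 4), and iNKT17-like, cycling and iNKT2-like cells overlapped one another at 49.3 to 53.0 CPM on average. Only iNKT0-like cells, at 17.0 ± 8.70 CPM on 23 UMIs, lay below every library of every other class named here. Cxcr4 was low throughout, from 11.7 ± 4.03 CPM in unnamed cells to 28.3 ± 5.48 CPM in cycling cells. Cycling and iNKT0-like cells (28.0 ± 6.13 CPM) overlapped at the top, and the other classes overlapped one another. Top2a-led cycling cells held 37.7 ± 6.05 CPM of Cxcr4 and Hells-led ones 13.2 ± 8.67 CPM.

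**Figure D1:**
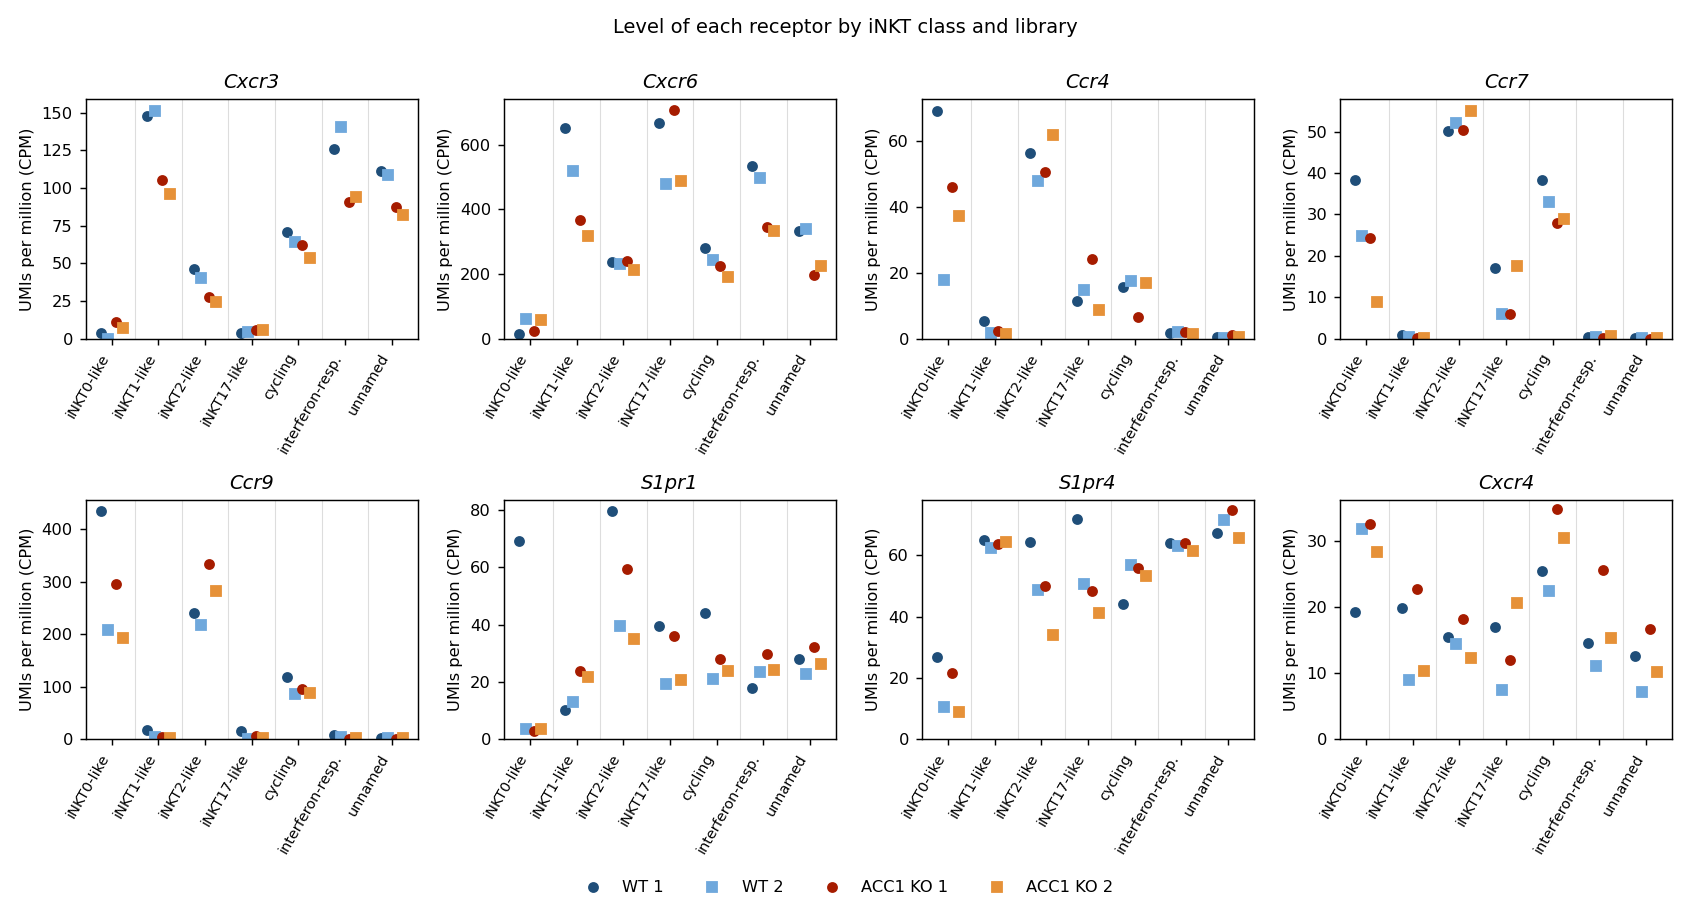
CPM of each member (vertical axis, own scale per panel) by iNKT class (horizontal axis), 1 point per library, circles for libraries numbered 1 and squares for those numbered 2. Cxcr3 and Cxcr6 are high in iNKT1-like and interferon-responding cells, Cxcr6 also in iNKT17-like cells, while Ccr4, Ccr7 and Ccr9 are high in iNKT2-like and iNKT0-like cells and S1pr4 is lowest in iNKT0-like cells, with every cycling library below every iNKT1-like one.

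Shares of cells with a UMI gave the same picture at a fixed depth of 2000 UMIs per cell, to which every cell at least that deep was thinned. Shallower cells were left out, among them 27, 23, 126 and 21 iNKT cells. Cxcr6 was found in 63.9, 59.3, 48.6 and 44.1% of iNKT1-like cells and in 34.3, 29.9, 32.4 and 31.4% of iNKT2-like cells. In WT 1 the exact 95% interval for iNKT1-like cells, which covers counting error only, ran from 61.7 to 66.0%. DP thymocyte-like cells of at least 2000 UMIs, which should lack Cxcr6, gave 0 to 1.61%. Their median depth was 3003 to 8199 UMIs, against 4317 to 7095 in iNKT1-like cells. Without thinning the iNKT1-like shares were 82.5, 85.8, 70.7 and 79.2%.

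Cxcr3 was found in 26.4, 26.0, 19.3 and 18.7% of thinned iNKT1-like cells, and in no thinned DP thymocyte-like cell. Only 124, 58, 117 and 77 of the 222, 72, 212 and 93 DP thymocyte-like cells were deep enough to be thinned. A count of 0 among them allows a share of cells with a UMI of up to 2.42, 5.17, 2.56 and 3.90%. Unthinned, the iNKT1-like shares were 48.3, 56.5, 37.4 and 49.2%, so that only thinned values separated the genotypes. Ccr9 was found in 30.8, 28.9, 36.5 and 32.9% of iNKT2-like cells (52.7, 60.4, 60.4 and 66.2% unthinned), against 3 of 376, 1 of 16, 2 of 106 and 0 of 39 B cell-like cells, at median depths of 7881 to 14928 and 3420.5 to 8080 UMIs. In iNKT1-like cells the thinned Ccr9 shares were 1.93, 0.733, 0.423 and 0.441%, and the few B cell-like cells set no firm background for them.

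Pairs of members were then counted within cells. Among thinned iNKT1-like cells with a Cxcr3 UMI, 65.6, 63.4, 54.2 and 45.5% also had Cxcr6, against 63.3, 57.9, 47.3 and 43.8% of those without. The share was higher in all 4 libraries. Among iNKT2-like cells with a Ccr7 UMI, S1pr1 was found in 8 of 20, 3 of 17, 2 of 23 and 4 of 60, or 40.0, 17.6, 8.70 and 6.67%. Among the rest it was found in 11.4, 7.06, 8.43 and 7.83%. These shares rest on at most 8 cells with both, and no test over cells was made.

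Genes whose levels ran most like each member were ranked over 24 sums of a class in a library, by Pearson's r of log2(CPM + 5) over 6266 genes. These sums share libraries and classes and leave out the unnamed cells, and the values are descriptions. Closest to Cxcr3 were Gimap4 (r = 0.96), Ctsd (0.95) and Tbx21 (0.95). Tbx21 encodes the T-box factor T-bet and was among the markers used to name iNKT1-like cells. Of the genes given next, Slamf6 was a naming marker of iNKT0-like cells and Il6ra one of iNKT2-like cells. Closest to Cxcr6 were Podnl1, Tpst2 and Adgrg5 (0.94 to 0.95). Ccr9 ran with Slamf6, Sox5 and Cd81 (0.93), Ccr7 with Ptms, Igfbp4 and Mrpl27 (0.92 to 0.95) and Ccr4 with St13, Nsg2 and Psmd7 (0.91 to 0.94). S1pr4 ran with Lfng, Rps16 and Sema4a (0.92 to 0.94). S1pr1 and Cxcr4 had looser partners, Cops9, Il6ra and Gpr146 (0.75 to 0.85) and Npat, Trim59 and Nfyb (0.78 to 0.80). Among the members, Ccr4, Ccr7 and Ccr9 ran together at 0.84 to 0.85, and Cxcr6 ran against Ccr9 at -0.73.

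Levels in WT and ACC1 KO libraries were then compared, to ask how the receptors differ in libraries labelled as ACC1 knockouts. UMIs were summed per library and tested with the edgeR quasi-likelihood test, adjusted by the Benjamini-Hochberg method over all genes. Over all iNKT cells, Cxcr3 and Cxcr6 were lower and Ccr4, Ccr7 and Ccr9 higher in both ACC1 KO libraries, but no member passed the adjusted threshold of 0.05. This fit held no term for the library number, and a fit with such a term is given at the end. Of 14726 genes tested, 0.00679% passed by edgeR and 0.672% by DESeq2, and none of the 8 members passed by either. DESeq2 gave an adjusted p to 14155 of these genes. At an unadjusted p under 0.05 the edgeR test held 720 genes, 4 of them members (Cxcr3, Cxcr6, Ccr7 and Ccr9). DESeq2 held 604 genes, with the same 4 members.

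Cxcr6 stood at 470, 418, 300.3 and 277 CPM over all iNKT cells. The WT mean was 444 ± 37.0 CPM and the ACC1 KO mean 288 ± 16.8 CPM (SD, n = 2), 35.1% lower, and the genotypes did not overlap. The log2 fold change was -0.57 ± 0.15 (SE), with -0.56 between libraries numbered 1 and -0.58 between those numbered 2, and edgeR adjusted p = 0.72. DESeq2 gave an adjusted p of 0.0646.

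Cxcr3 stood at 117, 122, 85.3 and 79.4 CPM, with both ACC1 KO libraries below both WT libraries. The log2 fold change was -0.49 ± 0.13 (SE), -0.37 within number 1 and -0.61 within number 2, at an edgeR adjusted p of 0.72. S1pr4, at 64.4, 64.1, 63.0 and 58.9 CPM, gave -0.03 ± 0.12 on the log2 scale.

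Ccr9 stood at 34.6, 21.0, 51.4 and 45.3 CPM over all iNKT cells, with both ACC1 KO libraries above both WT libraries. Its log2 fold change was 0.86 ± 0.23 (SE), 0.66 within number 1 and 1.12 within number 2, with an edgeR adjusted p of 0.74. Leaving out each library in turn gave 0.58 to 1.21. It was 0.58 without WT 2 (edgeR adjusted p = 0.64) and 1.21 without WT 1, the only one of these 4 in which it passed (0.0047), the remaining WT library being assumed to vary like the ACC1 KO ones. With no filter on low counts it passed at an edgeR adjusted p of 0.001.

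Ccr7 stood at 6.37, 5.55, 8.59 and 10.0 CPM (log2 fold change 0.70 ± 0.18, edgeR adjusted p = 0.72), again without overlap. Ccr4 stood at 8.02, 4.93, 8.49 and 10.2 CPM (0.61 ± 0.26), but its 2 numbers differed, at 0.17 and 1.06. S1pr1 at 25.1, 19.1, 30.4 and 24.3 CPM (0.36 ± 0.18) and Cxcr4 at 16.6, 9.96, 22.7 and 13.8 CPM (0.52 ± 0.32) were higher in the ACC1 KO library of each number, though the genotypes overlapped in CPM.

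After scaling by library composition (TMM), 4 members, Ccr4, Ccr7, Ccr9 and S1pr1, lay above without overlap and 2, Cxcr3 and Cxcr6, below. Of all genes tested, 14.2% lay above and 15.3% below. In plain CPM 3 members lay above and 3 below, S1pr4 having joined the lower and S1pr1 having left the higher, where 11.2% of genes lay above and 19.2% below. The median log2 fold change of the members was 0.44, against -0.01 over all genes.

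**Figure D2:**
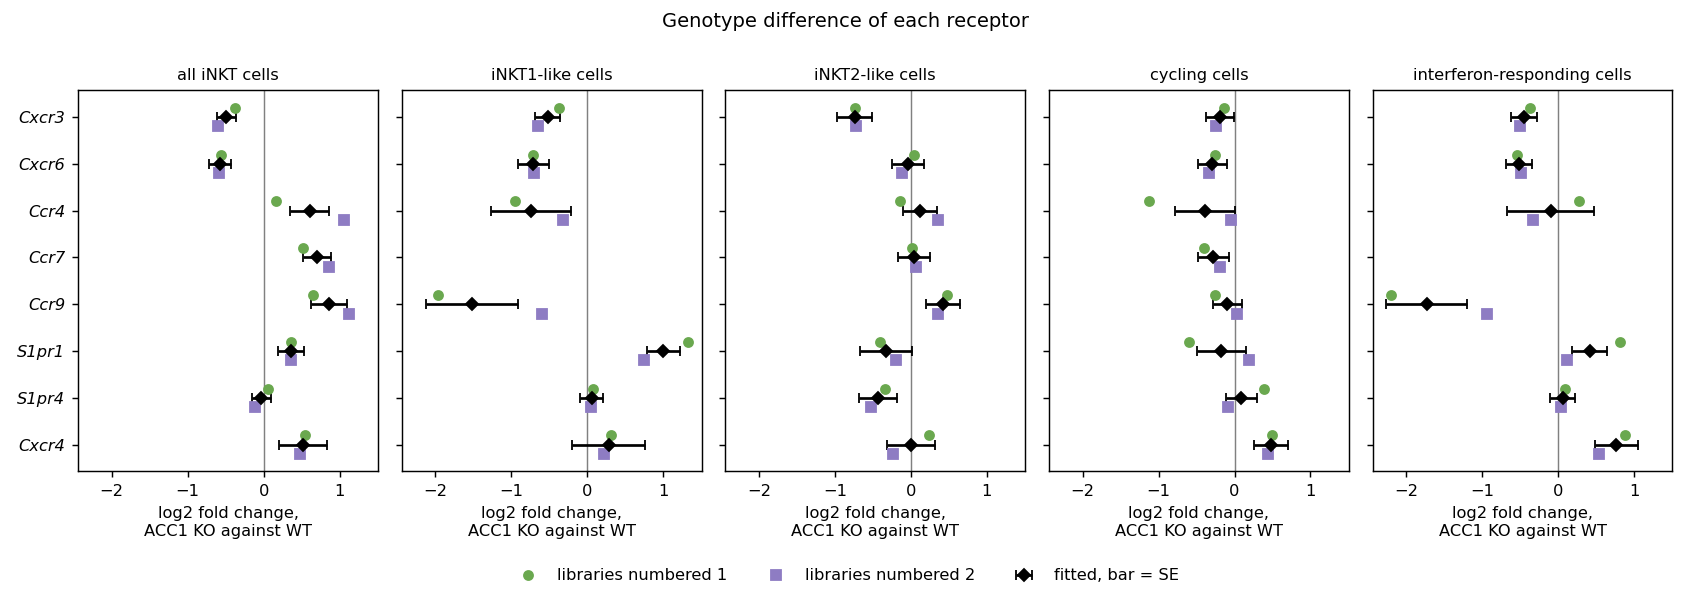
Log2 fold change of each member, ACC1 KO against WT (horizontal axis), for all iNKT cells and 4 classes. Diamonds with bars are fitted values with SE, circles and squares the differences within libraries numbered 1 and 2. Cxcr3 lies left of 0 in all 5 panels, while Cxcr6 lies near 0 in iNKT2-like cells and Ccr9 is right of 0 in all iNKT and iNKT2-like cells and left of it in the others. Members without a diamond had too few UMIs to be fitted.

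The mix of classes differed between the libraries and bears on these sums. iNKT2-like cells made up 3.67 and 2.07% of WT and 6.59 and 6.53% of ACC1 KO iNKT cells, and cycling cells 1.93 and 3.47% against 5.05 and 6.47%. With 2 libraries against 2, an exact permutation test cannot go below p = 0.3333, so no p is given for these shares. When each class was given the same weight in every library (limma on log2(CPM + 1)), Ccr4 was at -0.12 ± 0.23, Ccr7 at -0.18 ± 0.18 and Ccr9 at -0.08 ± 0.24 on the log2 scale. Their direction over all iNKT cells was thus not kept with the mix of classes held equal. The fit was made without TMM scaling, and its median over all genes was -0.06. Cxcr6 was at -0.68 ± 0.17 and Cxcr3 at -0.50 ± 0.15, as large as before, and S1pr1 stayed at 0.36 ± 0.17. With the same mix of clusters, chosen after seeing the data, Ccr4 was at 0.17, Ccr7 at -0.13, Ccr9 at 0.04 and S1pr1 at 0.16, while Cxcr6 and Cxcr3 were at -0.53 and -0.38. No member passed the threshold in either.

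**Figure D3:**
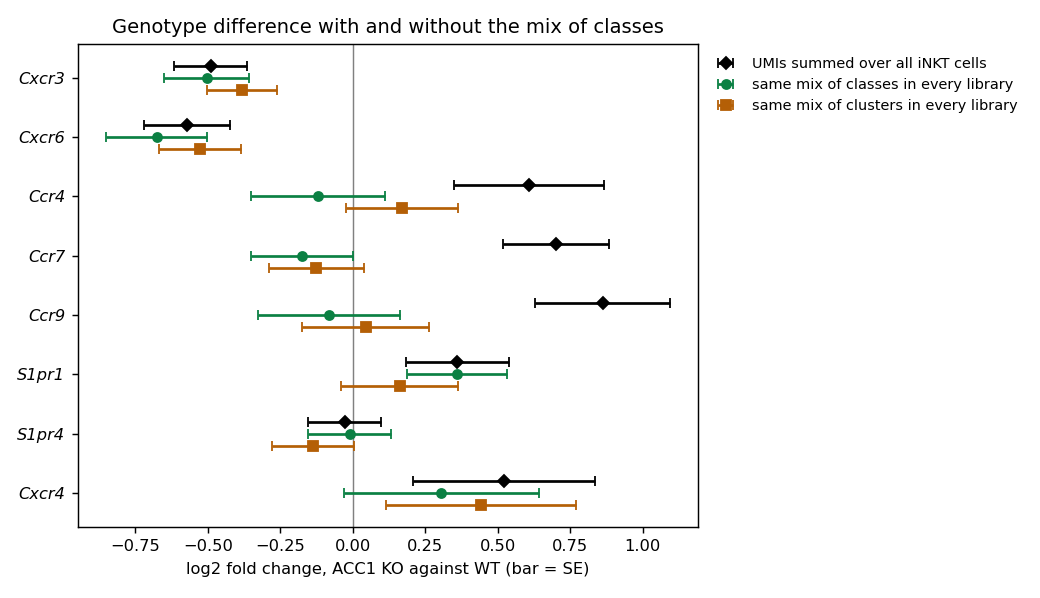
Log2 fold change over all iNKT cells, ACC1 KO against WT (horizontal axis, bars are SE), for each member from summed UMIs and with the same mix of classes or of clusters in every library. Ccr4, Ccr7 and Ccr9 move to within 0.18 of 0 once the mix is held equal, and Cxcr3 and Cxcr6 do not.

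Within iNKT1-like cells, Cxcr6 stood at 650.3, 517, 368 and 317 CPM. The WT mean was 584 ± 94.2 CPM and the ACC1 KO mean 342 ± 35.5 CPM (SD, n = 2), without overlap. The log2 fold change was -0.71 ± 0.21 (SE), -0.72 within number 1 and -0.70 within number 2. It did not pass by edgeR (adjusted p = 0.63) but passed by DESeq2 (adjusted p = 0.0369), the only one of the 7 members tested here that did. By edgeR 0.0466% of the 12868 genes passed, by DESeq2 0.629%, with 0.155% called lower. DESeq2 gave an adjusted p to 12119 of these genes. At an unadjusted p under 0.05 edgeR held 525 genes, with Cxcr3, Cxcr6 and S1pr1 among them. DESeq2 held 402, with these members and Ccr9.

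Different clusters hold most of this class in the 2 genotypes. The clusters led by Atp8a2 and Cd226 and by Nkg7 and Fcer1g held 80.6 and 80.3% of WT iNKT1-like cells but 43.3 and 37.6% of ACC1 KO ones. The clusters led by Gzma and Ccl5 and by Fosb held the rest. Libraries of 1 genotype differed too. Of all iNKT cells, the Atp8a2-led cluster made up 31.6, 18.3, 13.6 and 8.89%, and the Nkg7-led cluster 3.17, 21.9, 6.91 and 11.9%. With the same mix of these 4 clusters, chosen after seeing the data, Cxcr6 was at -0.56 ± 0.16 and Cxcr3 at -0.33 ± 0.13 on the log2 scale, and neither passed. With the unnamed clusters added to the class, also chosen after seeing the data, Cxcr6 was at -0.53 ± 0.14 and Cxcr3 at -0.36 ± 0.12. Neither passed there by edgeR.

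Cxcr3 in iNKT1-like cells gave -0.52 ± 0.16 (SE) on the log2 scale, -0.38 within number 1 and -0.65 within number 2 (edgeR adjusted p = 0.83). S1pr1 in the same cells stood at 10.2, 13, 23.9 and 21.9 CPM, higher in both ACC1 KO libraries than in either WT library. Its log2 fold change was 1.0 ± 0.21 (SE) with an edgeR adjusted p of 0.31 and a DESeq2 adjusted p of 0.0636. It passed with no filter on low counts (edgeR adjusted p = 0.00071), and with the same mix of the 4 clusters it was 0.31 ± 0.18. With the unnamed clusters added it was 0.54 ± 0.13 and did not pass by edgeR. By cluster, S1pr1 stood at 5.34, 5.04, 9.11 and 10.4 CPM in the one led by Atp8a2 and at 17.9, 16.2, 18.0 and 19.98 CPM in the one led by Nkg7, both without overlap. In the clusters led by Gzma (24.3, 24.7, 34.7 and 23.5 CPM) and by Fosb (31.8, 14.6, 26.4 and 25.8 CPM) the genotypes overlapped, as they did in 9 of the 13 iNKT clusters. No share over all genes was taken within clusters.

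Ccr9 in iNKT1-like cells was at 16.8, 4.43, 3.91 and 2.90 CPM, on 153, 121, 48 and 94 UMIs. The Atp8a2-led cluster held 22.2, 8.89, 8.52 and 6.77 CPM, and the other 3 clusters 0 to 5.43 CPM. Its log2 fold change was -1.51 ± 0.61 (SE), -1.97 within number 1 and -0.59 within number 2, and -0.42 without WT 1. With no filter on low counts it passed (edgeR adjusted p = 0.00042). S1pr4 (log2 fold change 0.06 ± 0.15), Cxcr4 (0.29 ± 0.48) and Ccr4 (-0.74 ± 0.53) overlapped between genotypes, and Ccr7 had too few UMIs to be tested. After TMM scaling, S1pr1 lay above and Cxcr3, Cxcr6 and Ccr9 below without overlap, where 13.3% of genes lay above and 14.5% below (9.65 and 17.3% in plain CPM).

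The same comparison was made within single clusters. Both ACC1 KO libraries lay below both WT libraries in plain CPM in 10 of 13 iNKT clusters for Cxcr3 and in 8 of 13 for Cxcr6. On that scale 19.2% of genes lay below in the sums of all iNKT cells. No such share was taken within clusters, so the counts of clusters have no background of their own. The 3 clusters in which Cxcr3 lay above were the iNKT0-like, iNKT17-like and Top2a-led cycling ones, at 0 to 41.5 CPM. Cxcr6 overlapped in iNKT2-like, iNKT0-like, iNKT17-like and Top2a-led cells, and in the Egr3-led cluster it lay above. These clusters share libraries and are not independent.

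**Figure D4:**
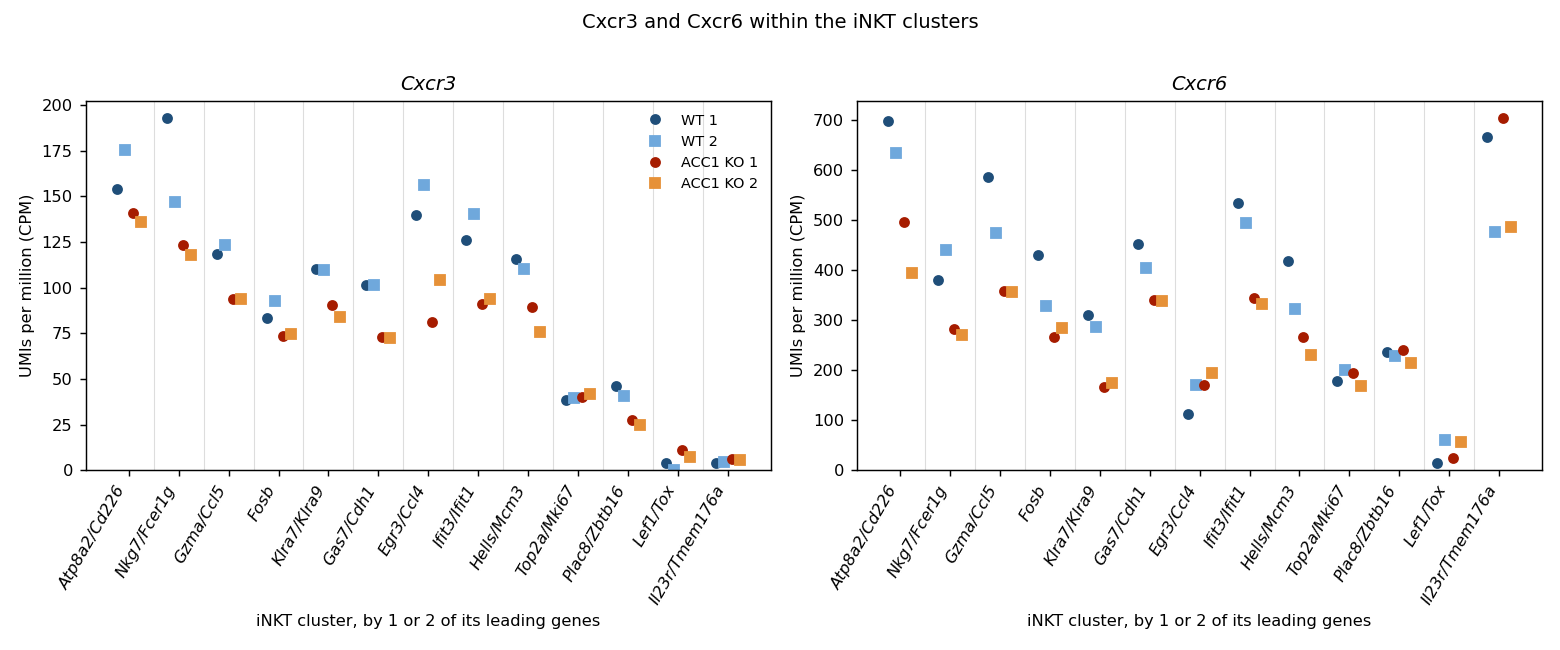
CPM of Cxcr3 (left) and Cxcr6 (right) in each of the 13 iNKT clusters (horizontal axis, named by 1 or 2 of its leading genes), 1 point per library. ACC1 KO points lie below WT points in 10 clusters for Cxcr3 and in 8 for Cxcr6, and the Plac8 and Zbtb16 cluster (iNKT2-like) shows a gap for Cxcr3 but not for Cxcr6.

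Within iNKT2-like cells, Cxcr6 did not separate the genotypes, at 236, 229.6, 241 and 214 CPM (log2 fold change -0.04 ± 0.21, SE). Cxcr3 did, at 46.4, 40.7, 27.4 and 24.7 CPM, with -0.74 ± 0.23 on the log2 scale, -0.73 within number 1 and -0.72 within number 2. It did not pass by edgeR or DESeq2 (adjusted p = 1 in both). Of 10292 genes tested, 0% passed by edgeR and 0.0389% by DESeq2, none of them a member. At an unadjusted p under 0.05 edgeR held 240 genes and DESeq2 90, in both with Cxcr3 as the only member.

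Ccr9, the receptor of thymic Ccl25, was higher in both ACC1 KO libraries, with WT and ACC1 KO means of 229 ± 16.2 and 308 ± 36.3 CPM (SD, n = 2) and a log2 fold change of 0.42 ± 0.22 (SE). Ccr7 (0.04 ± 0.21) and Ccr4 (0.12 ± 0.22) overlapped between genotypes. S1pr1 was at -0.33 ± 0.34 and S1pr4 at -0.43 ± 0.25 on the log2 scale, both overlapping. Ccr9 alone lay above and Cxcr3 alone below, where 12.8% of genes lay above and 11.7% below after TMM scaling.

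The difference between the genotype effects of iNKT2-like and iNKT1-like cells was tested in 1 fit of 8 sums, with library and class as terms. It was 0.66 ± 0.16 for Cxcr6 (log2, SE, edgeR adjusted p = 0.16), and no member passed by edgeR or DESeq2, where 0.128% of 11748 genes did by edgeR (0.034% higher and 0.0936% lower) and 0.0766% by DESeq2 (0.017% higher and 0.0596% lower). DESeq2 gave an adjusted p to only 6965 of the 11748 genes, so its shares understate its rate. At an unadjusted p under 0.05 edgeR held 748 genes, with Cxcr6, Ccr7 and S1pr4 among them. DESeq2 held 205, with Ccr9, Cxcr6 and S1pr1 among them. For Ccr9 the difference was 1.71 ± 0.79 (adjusted p = 0.90 by edgeR) and for S1pr1 -1.29 ± 0.65 (0.90). These depended on single libraries, the arm left with 1 library being assumed to vary like the other. Without WT 1, Ccr9 was at 0.90 and S1pr1 at -0.65, and neither passed (edgeR adjusted p = 0.14 and 0.58). Without WT 2, Ccr9 was at 2.54 and S1pr1 at -2.13 and both passed (edgeR adjusted p = 1.02e-08 and 0.0019). Without ACC1 KO 1, S1pr1 was at -1.62 (edgeR adjusted p = 0.0003) and S1pr4 at -0.82 (0.043). For Cxcr3 the difference was -0.22 ± 0.19.

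In cycling cells Cxcr4, the receptor of Cxcl12, stood at 25.5, 22.5, 34.9 and 30.5 CPM, above without overlap (log2 fold change 0.48 ± 0.22, SE). Cxcr3, Cxcr6 and Ccr7 lay below without overlap, at -0.19 ± 0.18, -0.29 ± 0.19 and -0.28 ± 0.21. After TMM scaling 14.4% of genes lay above and 13.8% below. By cluster, Cxcr3 and Cxcr6 lay below only in Hells-led cells, with means of 113 and 371 CPM in WT against 82.4 and 248 in ACC1 KO. In Top2a-led cells they were at 39.1 and 190 against 40.8 and 182 CPM. Ccr7 lay below in Top2a-led cells (57.9 against 46.1 CPM) and rested on 5 UMIs in Hells-led ones. Cxcr4 lay above only in Top2a-led cells (32.8 against 42.6 CPM). None of the 8 members passed by edgeR or DESeq2, where 0.0371% of 10789 genes passed by edgeR, all higher, and 0.102% by DESeq2 (0.0927% higher and 0.00927% lower). No member had an unadjusted p under 0.05 by either.

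In interferon-responding cells Cxcr6 stood at 535, 496, 345 and 333 CPM (log2 fold change -0.52 ± 0.17, SE) and Cxcr3 at 126, 141, 91.1 and 93.9 CPM (-0.45 ± 0.17). Cxcr4, at 14.6, 11.0, 25.6 and 15.4 CPM, was at 0.77 ± 0.28. Ccr9 was at -1.73 ± 0.53 on 19, 23, 6 and 12 UMIs. None of the 7 members tested passed by edgeR or DESeq2, where 0.0374% of 10704 genes passed by edgeR, all higher, and 0.178% by DESeq2 (0.149% higher and 0.028% lower). At an unadjusted p under 0.05 edgeR held 367 genes, with Cxcr3, Cxcr6, Cxcr4 and Ccr9 among them. DESeq2 held 182, with only Cxcr6 and Ccr9 of the members. Cxcr4 and S1pr1 lay above and Cxcr3, Cxcr6 and Ccr9 below without overlap, against 13.5 and 14% of genes after TMM scaling (8.26 and 20.6% in plain CPM).

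Lists of related genes were set beside the members in all iNKT cells. No listed gene passed by edgeR, and by DESeq2 1 ligand was higher and 1 integrin lower. The ligand was Cxcl10, the interferon-induced ligand of Cxcr3, at 4.50, 4.63, 18.9 and 9.82 CPM (log2 fold change 1.68 ± 0.33, SE, DESeq2 adjusted p = 0.00066, edgeR 0.51). Interferon-responding cells were 10.7 and 10.7% of WT and 17.0 and 13.1% of ACC1 KO iNKT cells, and their part in this was not tested. Of 14 ligands 7 were tested, with a median log2 fold change of 0.02. Xcl1, a product of iNKT1 and NK cells, was at -0.40 ± 0.16 and Ccl5 at 0.18 ± 0.26.

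The integrin was Itga4, the alpha 4 chain of the receptors for VCAM-1 and MAdCAM-1, at 23.3, 27.7, 11.3 and 8.99 CPM (log2 fold change -1.29 ± 0.19, SE, DESeq2 adjusted p = 9.9e-05, edgeR 0.36). Of 9 genes for integrins and selectin ligands, all 9 were tested and the median was -0.24, the lowest of the lists. Itga1, the collagen-binding alpha 1 chain, was at -0.42 ± 0.15 and Itgb2, the common leukocyte beta chain, at -0.35 ± 0.17, both without overlap.

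Other chemokine receptors had a median of -0.20 over the 10 of 16 tested, and none passed. Ccr8 stood at 19.3, 19.4, 6.29 and 12.9 CPM (log2 fold change -0.95 ± 0.34, SE), lower in both ACC1 KO libraries. Ccr10 was at 0.58 ± 0.28. Among the other sphingosine 1-phosphate and oxysterol receptors (3 of 4 tested, median -0.07), S1pr5 was at 0.99 ± 0.36, from 0.807 and 1.32 CPM in WT to 2.13 and 2.10 CPM in ACC1 KO. Gpr183, the oxysterol receptor, was abundant at 124 to 199.5 CPM and gave -0.17 ± 0.22, and S1pr2 gave -0.07 ± 0.19.

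Genes that control egress had a median of 0.03 over the 11 of 13 tested. Klf2, a transcription factor known to act on S1pr1, stood at 380.0, 403, 595 and 436 CPM (log2 fold change 0.44 ± 0.20, SE), 0.73 within number 1 and 0.13 within number 2. Cd69, which pulls S1pr1 from the surface, was at 68.4, 82.7, 74.8 and 120 CPM (0.41 ± 0.27), with overlap.

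Receptor signalling genes had a median of -0.03 over the 26 tested of 28, with Grk3 at -1.22 ± 0.45, Rgs18 at 1.49 ± 0.67 and Rgs1, a brake on chemokine receptor signalling, at -0.28 ± 0.13. Transcription factors known to act on members had a median of 0.07 over 11 of 12 tested. There Id3 was at 0.62 ± 0.18 and Lef1 at 0.47 ± 0.18. Over all genes tested the median was -0.01, and no list is singled out by these medians.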

How the data were processed

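Single-cell RNA was measured by 10x 3′ libraries in 4 samples. The deposited tables hold UMI counts per gene and cell, which the authors deposited without normalization. The submitters' processing notes name Cell Ranger 7.0.0 and mm10. Barcodes were kept from 500 genes and 1000 UMIs upward if mitochondrial UMIs stayed below 10% (30167 of 30455 barcodes). Doublets were marked by nearest neighbours of simulated doublets, and 28247 cells were clustered with scanpy 1.11.5 (2000 variable genes without the members and other listed receptors, 30 components, 15 neighbours, Leiden resolution 1). The limits and order of the naming scores were set after seeing the data. 13 of 18 clusters were iNKT cells, and 1237 cells of other types were left out.

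UMIs were summed per library and class, with TMM scaling, edgeR 4.0.16's quasi-likelihood test (without covariates, except library and class in the class difference) and Benjamini-Hochberg adjustment over all genes that passed its filter on low counts, at a threshold of 0.05. DESeq2 1.42.0 and limma 3.58.1 served as alternatives, as did other filters, cell sets, clusterings and leaving out each library. Classes with under 50 cells in a library (iNKT0-like and iNKT17-like) were not tested. The scripts were tested on simulated data. Intervals and floors cover counting error only. The named genes are the members, up to 3 genes per list with the smallest p in all iNKT cells, and the 3 genes most like each member. Some genes that this rule names are not reported here. The members and lists were chosen with earlier results of these data known, and the list results are therefore not independent evidence. Promoters are RefSeq's, gene positions GENCODE's.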

Additional observations from a re-analysis of the deposited data

Results flagged for a closer look

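Among pairs of classes whose difference was not tested, there were 4 cases in which both within-number differences of ACC1 KO against WT went one way in iNKT2-like cells and the other way in a second class. Ccr9 differed by 2.15 on the log2 scale between iNKT2-like and interferon-responding cells. Its values within numbers 1 and 2 were 0.48 and 0.36 in iNKT2-like cells and -2.20 and -0.94 in interferon-responding cells, where it rested on 6 to 23 UMIs per library. S1pr1 differed by -0.74, from -0.41 and -0.19 in iNKT2-like cells to 0.81 and 0.12 in interferon-responding cells. S1pr4 differed by -0.49, from -0.35 and -0.53 to 0.09 and 0.04 in the same classes. Ccr7 differed by 0.32 between iNKT2-like cells (0.02 and 0.06) and cycling cells (-0.40 and -0.19). None of these differences was tested. Between iNKT2-like and iNKT1-like cells, where the difference was tested and no member passed, Ccr9 (-1.97 and -0.59 in iNKT1-like cells), S1pr1 (1.32 and 0.75) and S1pr4 (0.08 and 0.05) also went opposite ways in both numbers.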

How the results depend on the processing

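Of 473 member fold changes recomputed under other settings, 442 kept their direction and 31 turned, the largest of these to 0.32. 29 came newly past the threshold, 20 of them with the replicate block. Over all iNKT cells, 1 gene and 0 members were called. DESeq2 called 99 genes, no filter on low counts 364 and 1 member, every barcode 0, a floor of 10 CPM on the mean 0, and the same mix of classes or of clusters 2 each. In iNKT1-like cells (6 genes, 0 members) DESeq2 called 81 genes and 1 member, no filter 185 and 2, at least 10 CPM 3, doublets kept 1, unnamed clusters added 1 and the same mix of its clusters 2. In iNKT2-like cells (0 genes) DESeq2 called 4 and no filter 17. In cycling cells (4 genes) DESeq2 called 11, no filter 42 and at least 10 CPM 2. In interferon-responding cells (4 genes) DESeq2 called 19 and no filter 93. For the class difference (15 genes) DESeq2 called 9. Leaving out each library gave 2 to 250 genes and 0 to 1 members in all iNKT cells (250 without WT 2, 88 without WT 1), 1 to 3 genes in iNKT1-like and 2 to 9 in iNKT2-like cells, 6 to 21 where cells cycled, 9 to 26 in interferon-responding cells, and 34 to 103 genes and 0 to 2 members for the class difference.

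Libraries share the numbers 1 and 2, but with 2 pairs the numbers are not shown to pair samples, although the number 1 minus number 2 differences of the genotypes correlated at 0.69 over 14726 genes. The sex-linked genes also split by number in both genotypes. Ddx3y stood at 82.4 and 77.1 CPM in libraries 1 against 0.0473 and 0.0763 in libraries 2. Xist stood at 0.594 and 0.244 against 586 and 653 CPM. Depth went with the number too. With the replicate block, 1589 genes and 7 members were called in all iNKT cells, 837 and 4 in iNKT1-like, 72 and 1 in iNKT2-like cells, 222 genes in the cycling class, 473 and 4 in interferon-responding cells, and 298 and 4 for the class difference. The cause was not tested.

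With the same mix of classes, Ccr4, Ccr9 and Ccr7 turned to -0.12, -0.082 and -0.18 in all iNKT cells, and with the same mix of clusters Ccr7 to -0.13. With every barcode S1pr4 turned to 0.0072. With the same mix of its clusters, iNKT1-like Ccr4 turned to 0.32 and S1pr4 to -0.20. In iNKT2-like cells Cxcr4 turned to -0.0037 with DESeq2 size factors, -0.00050 at 10 CPM and -0.033 with the replicate block. With doublets kept, iNKT2-like Cxcr6 turned to 0.067 and Ccr7 to -0.0061, cycling S1pr4 to -0.071 and the log2 ratio of Cxcr4 in iNKT2-like to iNKT1-like cells to -0.11. Without thinning, the ACC1 KO minus WT difference in the share of cells with S1pr4 turned to 1.05 points, and the excess of S1pr1 among Ccr7 cells in ACC1 KO 2 to 6.84 points. Leaving out each library, ranges that crossed 0 were -0.065 to 0.019 for S1pr4 in all iNKT cells, -0.31 to 0.84 for Cxcr4 and -1.32 to 0.039 for Ccr4 in iNKT1-like cells, and -0.70 to 0.22 for Cxcr4 in the class difference. In iNKT2-like cells they were -0.27 to 0.27 for Cxcr4, -0.77 to 0.21 for S1pr1, -0.056 to 0.26 for Ccr4, -0.12 to 0.028 for Cxcr6 and -0.044 to 0.11 for Ccr7. In cycling cells they were -0.71 to 0.30 for S1pr1, -1.32 to 0.032 for Ccr4, -0.31 to 0.11 for Ccr9 and -0.057 to 0.37 for S1pr4. At resolution 0.5 no iNKT0-like class was found. Depth limits Ccr7 and Ccr9 outside iNKT2-like, iNKT0-like and Top2a-led cycling cells.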
